A study of Strongylocentrotus droebachiensis with 6 samples.

Results

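The apical plate is the thickened, ciliated neuroectoderm at the animal pole of the sea urchin embryo. Its genes were followed here through NK2.1, foxq2, FoxJ1 and AnkAT-1, which were picked by name. Each name matched 1 row, so the 4 genes are 4 of the 31261 rows of the deposited table.

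RNA was sequenced from control and half-size embryos of the sea urchin Strongylocentrotus droebachiensis, with 3 libraries for each group. All embryos were wild type and were harvested as whole mesenchyme blastulae 46 hours after fertilisation, having been raised at 8 °C. Half-size embryos grew from single blastomeres that were separated at the 2-cell stage, 3.5 hours after fertilisation, from eggs kept in 1 mM aminotriazole (ATA, which keeps the fertilisation envelope soft). The blastomeres were parted with a needle after 15 min in seawater free of calcium and magnesium, and control embryos were intact siblings. The labels do not say whether the controls also went through ATA, the wash and the needle. They state that adults came from the Barents and White Seas over several breeding seasons, and do not say which library came from which.

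The apical plate is the site of the first larval neurons and carries the apical tuft, a bundle of long cilia. foxq2 encodes a forkhead transcription factor that sits near the top of the gene network of the plate, and Wnt signalling from the vegetal side limits it to the animal pole. NK2.1 encodes a homeodomain transcription factor related to vertebrate Nkx2.1, and it is needed for the apical tuft. FoxJ1 encodes a forkhead factor known in vertebrates as a main regulator of motile cilia. AnkAT-1 encodes an ankyrin-repeat protein of apical tuft cells, described in the sea urchin Hemicentrotus pulcherrimus.

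The libraries held 1804336 to 2294541 reads assigned to genes. Values are normalised read counts, in which the authors divided each library's counts by its size factor. The columns carry a group name and no replicate number. Each half-size library deviated from its group mean together with 1 control library (r = 0.76, 0.63 and 0.52 over the 11129 rows whose mean reached 10, against at most 0.01 for any other combination). These are called pairs A, B and C. The pairing was found from the values, and the labels do not state it. The libraries of each pair also stood in neighbouring columns. In whole embryos, fewer cells of a type and less RNA per cell cannot be told apart.

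The 4 genes differed in direction between half-size and control embryos. The mean of NK2.1 was about 1 log2 unit lower than in controls, the means of foxq2 and FoxJ1 were higher, and AnkAT-1 differed in sign between pairs. For all 4 genes the 2 groups of libraries overlapped. Groups did not overlap in 5.35% of the 18016 rows whose mean reached 1. No gene passed the threshold (adjusted p under 0.05, limma-trend, Benjamini-Hochberg over 18016 rows), and 0% of the rows did. At unadjusted p under 0.05 there were 242 rows (1.34%), NK2.1 among them.

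NK2.1 had 66.4, 123 and 201 normalised read counts in the half-size libraries of pairs A, B and C. In the control libraries of the same pairs it had 187, 211 and 363. The highest half-size value, in pair C, lay above the lowest control value, in pair A, so the groups overlapped by those libraries. Within each pair the half-size library was the lower one, by -1.48, -0.77 and -0.85 on the log2(value + 1) scale. Of the 18016 rows, 12.1% were lower in all 3 pairs.

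NK2.1 averaged 130 ± 67.7 in the half-size group against 254 ± 95.1 in the control group (SD, n = 3 each). The log2 difference was -1.03 ± 0.39 (SE; limma-trend adjusted p = 1.00). With the pair as a block the standard error was 0.17 and the adjusted p 0.121 in limma-trend, where 0.0111% of rows were called lower. NK2.1 fell in 2 other blocked fits, edgeR over the same rows (adjusted p = 0.00600; 0.0888% of rows called lower) and DESeq2 (adjusted p = 0.00845; 0.05% called lower). It missed the threshold in blocked edgeR over the 11346 rows kept by filterByExpr (adjusted p = 0.0912; 0.0264% called lower), a low-count filter added after the data were seen. These blocked p-values take the pairs as known, although the pairs were chosen for their high correlation. In fits without the block, leaving out half-size library A gave a difference of -0.62, and leaving out control library C gave -0.75.

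Counting error was small beside the NK2.1 differences. The 67 reads of NK2.1 in the half-size library of pair A have an exact 95% Poisson interval of 51.4 to 84.3 normalised counts. The 183 reads of its control partner have an interval of 161 to 216. In all 3 pairs the intervals of the half-size and the control library lay apart. Such intervals cover counting error only.

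**Figure D1:**
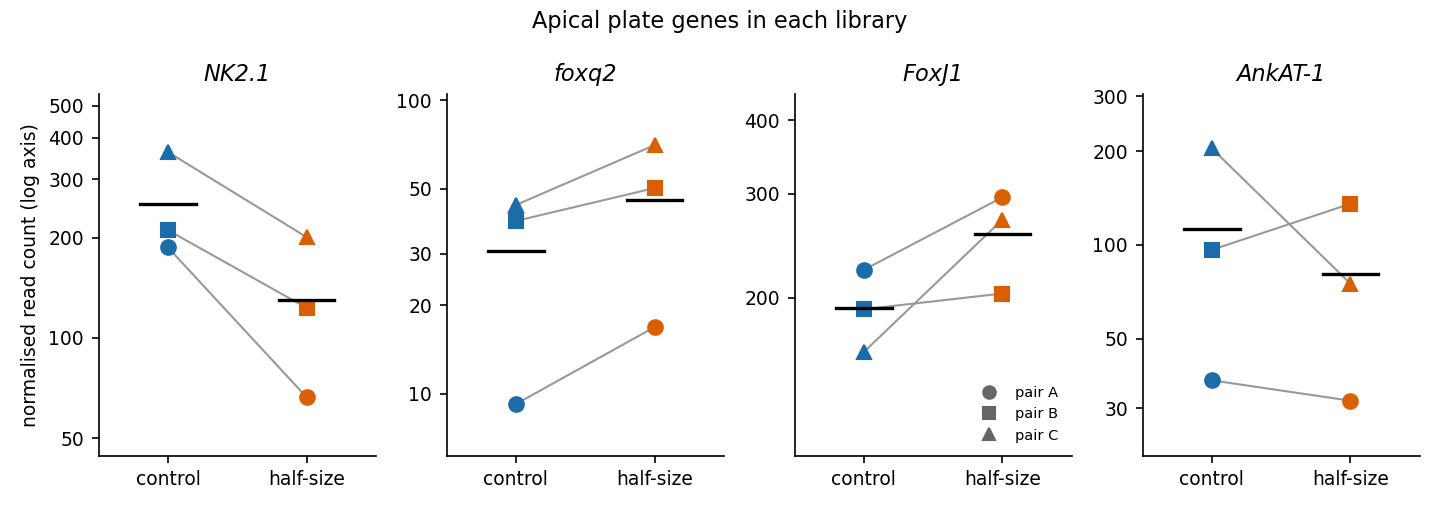
Normalised read count (log axis) of each gene in the 3 control and 3 half-size libraries, with symbols for the pairs, grey lines joining the libraries of a pair and black bars for group means. In every pair NK2.1 is lower and foxq2 and FoxJ1 are higher in the half-size library, and AnkAT-1 is higher there in pair B alone (136 against 96.5).

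foxq2 was the most weakly counted of the genes. It had 16.8, 50.2 and 70.3 normalised read counts in the half-size libraries of pairs A, B and C. The matching control values were 9.21, 38.8 and 44.0. Both libraries of pair A lay below all 4 others, and within every pair the half-size library was the higher one.

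The within-pair log2 differences of foxq2 were 0.81, 0.36 and 0.67, where 13% of rows were higher in all 3 pairs. The half-size group averaged 45.8 ± 27.0 and the control group 30.6 ± 18.7 (SD, n = 3 each). This is a log2 difference of 0.61 ± 0.64 (SE; limma-trend adjusted p = 1.00). With the pair as a block the limma-trend standard error was 0.23 and the unadjusted p 0.0235 (adjusted p = 0.936). In that fit 2.76% of rows were higher at unadjusted p under 0.05. The reads of foxq2 ran from 9 to 58 per library, and its 95% Poisson intervals of half-size and control overlapped in all 3 pairs. The 9 reads in the control library of pair A allow 4.2 to 17.5 normalised counts. Without that library the difference was -0.07, so its sign rests on 1 library when the pair is not in the fit.

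FoxJ1 had 296, 203 and 271 normalised read counts in the half-size libraries of pairs A, B and C. Its control values were 223, 191 and 162. The groups overlapped through 2 libraries, since the half-size library of pair B lay below the control library of pair A. FoxJ1 was the steadiest of the 4 genes, with a ratio of highest to lowest library of 1.83, against 5.46 for NK2.1, 6.43 for AnkAT-1 and 7.63 for foxq2.

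FoxJ1 averaged 257 ± 48.1 in the half-size group against 192 ± 30.6 in the control group (SD, n = 3 each). The log2 difference was 0.41 ± 0.22 (SE; limma-trend adjusted p = 1.00), and 0.41, 0.09 and 0.74 within pairs A, B and C. With the pair as a block the standard error was 0.16 and the unadjusted p 0.0248 (adjusted p = 0.936), where 2.76% of rows were higher at unadjusted p under 0.05. The 95% Poisson intervals of half-size and control lay apart in pairs A and C and overlapped in pair B. Without pair C the blocked difference was 0.25.

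AnkAT-1 had 31.7, 136 and 75.1 normalised read counts in the half-size libraries of pairs A, B and C. Its control values were 36.8, 96.5 and 204. The lowest values were those of pair A in both groups, and the highest was the control library of pair C. AnkAT-1 was lower in the half-size library of pairs A and C (-0.21 and -1.43 on the log2 scale) and higher in that of pair B (0.49).

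AnkAT-1 averaged 80.8 ± 52.2 in the half-size group against 112 ± 84.6 in the control group (SD, n = 3 each). Its log2 difference was -0.38 ± 0.63 (SE; limma-trend adjusted p = 1.00). The sign turned when half-size library A (0.16) or control library C (0.20) was left out and, with the block, when both libraries of pair C were (0.14). In pair C the Poisson intervals lay apart, at 57.6 to 96.3 for the half-size and 177 to 234 for the control library. They overlapped in pairs A and B. Ankyrin repeats occur in many genes. Whether AnkAT-1 has near-identical copies was not examined, and any reads shared with them could not be separated.

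**Figure D2:**
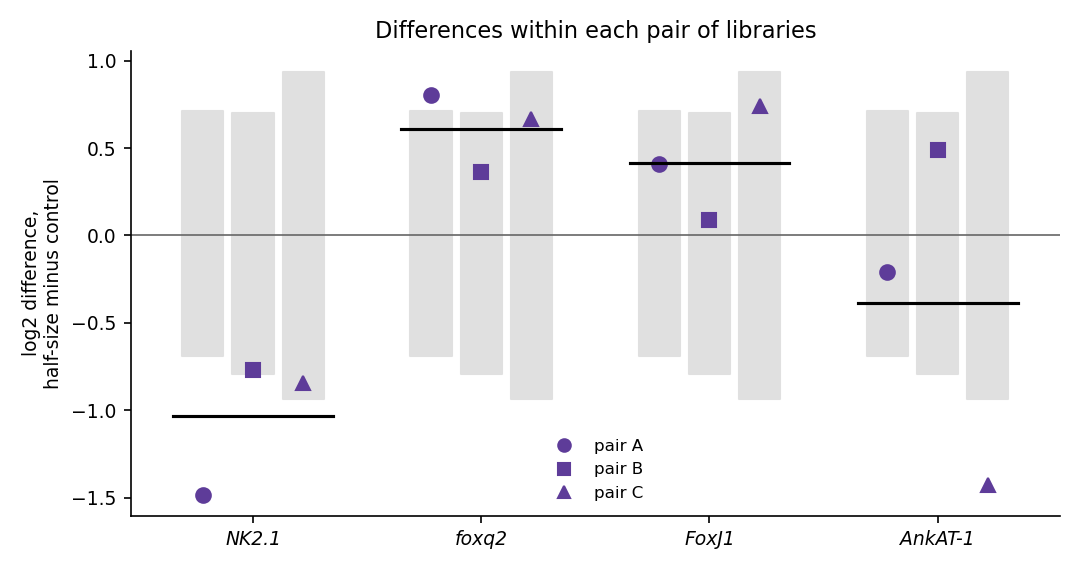
Log2 difference, half-size minus control, within pairs A, B and C (symbols) and over all libraries (black bars). Grey bands span the 5th to 95th percentile of the 11129 rows whose mean reached 10, in that pair. NK2.1 lies below the band in pair A, foxq2 above it in pair A and AnkAT-1 below it in pair C.

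Two-sided exact permutation tests over the libraries gave p = 0.2 for NK2.1, 0.5 for foxq2, 0.2 for FoxJ1 and 0.7 for AnkAT-1 (Benjamini-Hochberg p = 0.4, 0.667, 0.4 and 0.7 over the 4 genes). The smallest p that 3 libraries against 3 allow is 0.1. These tests shuffled the libraries without regard to the pairs, so differences between pairs enter their p. The authors' deposited table gave log2 fold changes of -0.96 (SE 0.41) for NK2.1 and 0.57 (SE 0.63) for foxq2. For FoxJ1 and AnkAT-1 the authors' deposited table gave 0.42 (SE 0.27) and -0.47 (SE 0.59). The adjusted p in the authors' deposited table was 1.00 for each of these genes, and the unadjusted p of NK2.1 there was 0.0189.

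Differences between pairs made up most of the spread of foxq2 and AnkAT-1. The pair took 89.0% of the sum of squares of foxq2 over the 6 libraries and the group 10.1%. For AnkAT-1 these shares were 78.3% and 4.13%. NK2.1 was divided almost evenly, at 48.0% for the pair and 47.4% for the group, and FoxJ1 had 30.5% and 49.0%. The pair has 2 degrees of freedom and the group 1, and because the pairs were chosen from the values these shares are a description.

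The order of the libraries was partly shared. Among controls, NK2.1, foxq2 and AnkAT-1 had their lowest values in pair A and their highest in pair C, and FoxJ1 had the reverse order. Among half-size libraries, NK2.1 and foxq2 again had their lowest values in pair A and their highest in pair C, while AnkAT-1 was highest in pair B and FoxJ1 in pair A. The spread of foxq2 over the 6 libraries (SD 1.05 on the log2 scale) exceeded that of 95.9% of rows whose mean reached 10. The spread of AnkAT-1 (SD 1.03) exceeded 95.7% and that of NK2.1 (SD 0.82) 91.6% of these rows, whereas FoxJ1 (SD 0.32) exceeded 41.0%.

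Ratios between 2 genes within a library depend on how libraries were scaled to each other only through the 1 added before the log. They were compared between libraries only, since genes differ in length. The log2 ratio of NK2.1 to foxq2 was 1.92, 1.28 and 1.5 in the half-size and 4.2, 2.41 and 3.02 in the control libraries of pairs A, B and C. Every half-size library lay below every control library. The half-size mean was 1.57 ± 0.32 and the control mean 3.21 ± 0.91 (SD, n = 3 each), so they differed by -1.65. With 0.1 or 5 added in place of 1, the difference was -1.68 or -1.53. The control ratio of 4.2 in pair A rests on 9 reads of foxq2, and without that library the difference was -1.15.

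The log2 ratio of NK2.1 to FoxJ1 was likewise lower in every half-size library, at -2.14, -0.72 and -0.43 against -0.25, 0.14 and 1.16. Its means were -1.10 ± 0.92 and 0.35 ± 0.73 (SD, n = 3 each), a difference of -1.45. Of 18528 ratios between rows with a gene name and a mean of at least 10, 6.89% did not overlap between groups. The ratios of AnkAT-1 to foxq2 (-1.0) and of AnkAT-1 to FoxJ1 (-0.80) differed in the same direction on average, and overlapped between groups. Both were higher in the half-size library of pair B, by 0.12 and 0.40. The ratio of NK2.1 to AnkAT-1 overlapped between groups too, with a difference of -0.65 on average and of 0.58 in pair C. These ratios were picked with the genes' values known, so no test is given.

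**Figure D3:**
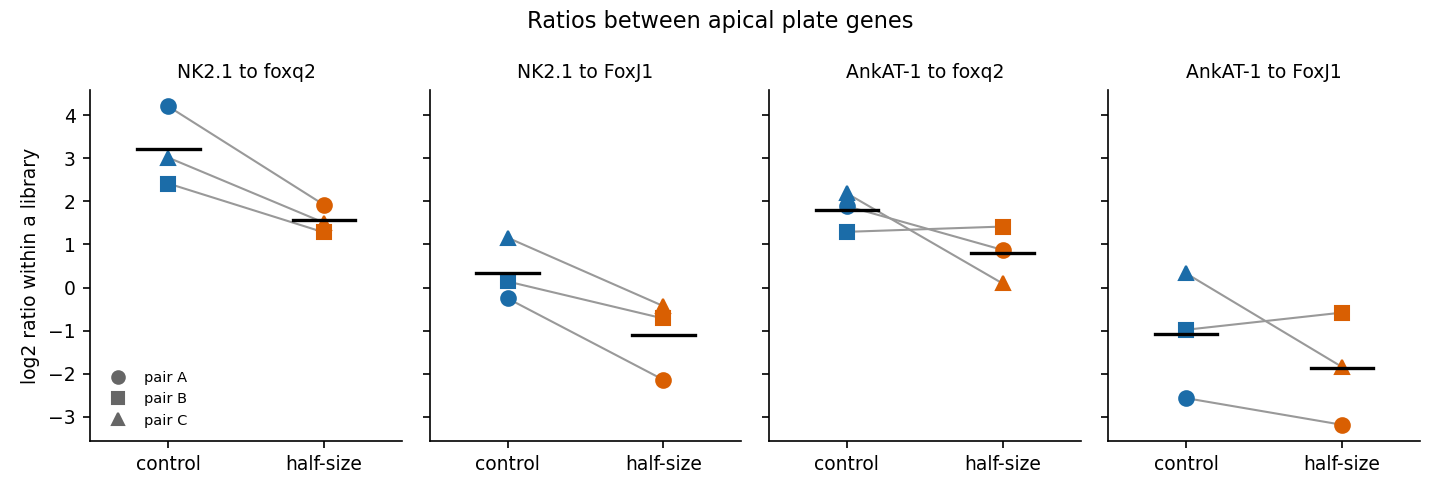
Log2 ratio of one gene to another within each library, for control and half-size embryos, with symbols for the pairs, grey lines joining pairs and black bars for group means. The ratios of NK2.1 to foxq2 and to FoxJ1 are separated between groups, and those of AnkAT-1 to the same genes are not.

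The genes with a name and a mean of at least 10 whose log2 values ran most like those of each gene over the 6 libraries were ranked among 192 rows. For NK2.1 these were the kinesin gene KIF15 (r = 0.96) and the homeobox genes HMX (r = 0.93) and Dlx (r = 0.92). All 3 had negative half-size minus control differences, of -0.14, -0.45 and -0.99, against -1.03 for NK2.1. They were chosen for likeness over all 6 libraries, so the group difference of NK2.1 entered the choice. For foxq2 the nearest rows included Wnt8 (r = 0.96) and the phosphodiesterase gene pde5 (r = 0.93).

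For FoxJ1 the likeness was weaker, with the Src-family kinase gene SFK1 (r = 0.85), the calcium pump gene SPCA (r = 0.80) and the actin gene CyI (r = 0.73). For AnkAT-1 the nearest were the bicarbonate transporter gene NBC (r = 0.94), SERCA, another calcium pump gene (r = 0.89), and pde5 (r = 0.89). Among the 4 genes themselves, AnkAT-1 ran with foxq2 (r = 0.75) and NK2.1 (r = 0.65) and against FoxJ1 (r = -0.80). NK2.1 and foxq2 were less alike (r = 0.35). These r describe 6 libraries that share pairs and were chosen as the highest of many, so they carry no p.

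The table held few other apical plate genes under their names. No row was named six3, fez or hbn, other regulators of the plate, and rows with LOC identifiers carry no name here. SoxB1, SoxB2 and otx, transcription factor genes with broad early ectoderm expression, differed by 0.11 ± 0.18, 0.00166 ± 0.16 and -0.08 ± 0.16 (SE, limma-trend). Their median was 0.00166, beside -0.000467 over all 18016 rows, and 0 of 3 passed in limma-trend with or without the block.

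Of the neuronal list only Hes, Nanos2 and delta were matched by name, so it cannot stand for neurons as a whole. All 3 had negative differences (median -0.46), where 50.1% of the 18016 rows were lower. In limma-trend 0 of 3 passed, with or without the block. Hes, a target of Notch signalling, had 265 and 370 normalised counts on average in half-size and control libraries, with -0.51, -0.40 and -0.51 in pairs A, B and C. Nanos2 and the Notch ligand gene delta differed by -0.46 ± 0.36 and -0.14 ± 0.24 (SE), and both were higher in the half-size library of pair A. Without pair C the median of the list was -0.16.

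The Wnt list was 3 genes with positive differences, where 49.9% of the 18016 rows were higher, and 0 of 3 passed. SFRP, a secreted frizzled-related gene, differed by 0.21 ± 0.21, Wnt8 by 0.22 ± 0.26 and wnt1 by 0.12 ± 0.25 (SE). The median difference of the list was 0.21 and came to 0.00143 without pair C. In pair C alone it was 0.48. Wnt8 had 581, 814 and 965 normalised counts in half-size and 480, 855 and 709 in control libraries of pairs A, B and C, lowest in pair A in both groups, as was foxq2.

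Relatives of these factors within the same transcription factor families were also measured. Of 5 other forkhead genes, 2 had negative and 3 positive differences, with a median of 0.01. foxx differed by 1.21 ± 0.55 (SE) and was higher in half-size embryos in each pair, as were 13% of the 18016 rows. It rose in blocked edgeR (adjusted p = 0.0407), where 41 of the 18016 rows were called higher. It did not pass in blocked limma-trend (adjusted p = 0.316) or in blocked edgeR with filterByExpr (adjusted p = 0.292). Blocked DESeq2 gave it no adjusted p. FoxA, an endoderm factor gene, differed by -0.22 ± 0.31 and FoxJ2 by -0.40 ± 0.62 at 3.60 and 4.56 normalised counts. The other NK-class homeobox genes Nk1 (-0.70 ± 0.39), NK2.2 (-0.46 ± 0.28) and Msx (-0.56 ± 0.48) all had negative differences, with 0 of 3 passing with or without the block. Of the 18016 rows, 50.1% were lower. Msx had 8 to 49 reads per library and was higher in the half-size library of pair A (0.25), with -1.53 in pair C.

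Genes of neighbouring tissues gave the following differences, where 50.1% of the 18016 rows were lower. Of 7 ciliary band and oral ectoderm genes, 4 were lower, with a median of -0.08. dri, an ARID-family factor gene, fell in blocked limma-trend (-1.21 ± 0.15, adjusted p = 0.0469), where 0.0111% of rows were called lower. It also fell in blocked edgeR (adjusted p = 0.000502), blocked DESeq2 (adjusted p = 0.000206) and blocked edgeR with filterByExpr (adjusted p = 0.0385). It did not pass in limma-trend without the block. The BMP antagonist gene CHRD differed by 0.33 ± 0.14 and the onecut gene hnf6, of the ciliary band, by -0.23 ± 0.16 (SE, blocked fit). Of 10 aboral ectoderm genes, 8 were lower, with a median of -0.34. NK2.2 and Msx, given above with the NK-class genes, were among these, so the lists are not separate. By pair this median was 0.10 in A, -0.40 in B and -0.34 in C, so pair A did not share it. Dlx (-0.99 ± 0.18) fell in blocked edgeR (adjusted p = 0.0174), where 0.0888% of rows were called lower. It did not pass in blocked limma-trend (adjusted p = 0.155), blocked DESeq2 (adjusted p = 0.133) or blocked edgeR with filterByExpr (adjusted p = 0.0913). IrxA (-0.81 ± 0.17) passed in neither blocked edgeR nor blocked limma-trend (adjusted p = 0.0588 and 0.314).

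Of 6 endoderm genes, 2 were lower, with a median of 0.02. GATAe differed by -0.54 ± 0.22 and eve by 0.32 ± 0.31 (SE), and 0 of 6 passed in limma-trend. Of 8 skeletogenic genes, 3 were lower, with a median of 0.01, and 0 of 8 passed. P16 differed by 0.21 ± 0.39, erg by -0.15 ± 0.33 and Alx1 by 0.11 ± 0.36 (SE).

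The skeletogenic list was highest in pair A, where NK2.1, foxq2 and AnkAT-1 had their lowest value within each group and FoxJ1 its highest. Its summed level was 11329 and 8059 normalised counts in the half-size and control libraries of pair A, and 4046 to 5729 in the other 4 libraries. The sum of the ciliary band and oral ectoderm list was 2219 and 2357 in pair A, below the 2449 to 3001 of the other libraries. Of the skeletogenic and the ciliary band and oral ectoderm genes, 0 were at 0 in any library. Their part in the differences of the 4 genes was not tested.

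No gene of the motile cilia list was matched by name. The subunit genes of kinesin-II, the motor that carries cargo into cilia, were looked up after the lists had been drawn up. KRP85, KRP95 and kap115 differed by 0.01 ± 0.29, -0.09 ± 0.34 and 0.06 ± 0.30 (SE), beside 0.41 for FoxJ1.

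**Figure D4:**
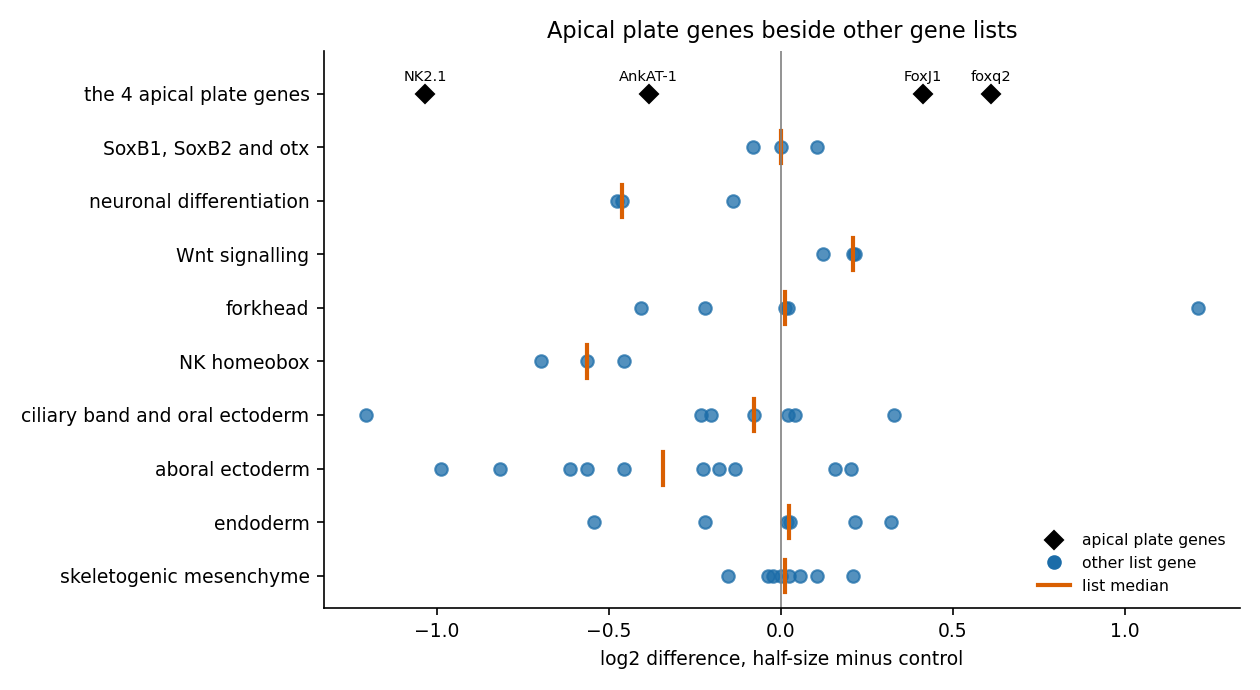
Log2 difference, half-size minus control, of the 4 apical plate genes (diamonds) and of the measured genes of 9 lists (circles), with list medians as orange bars. The 4 genes span -1.03 to 0.61, and SoxB1, SoxB2 and otx lie between -0.08 and 0.11. SoxB1, SoxB2 and otx averaged 1066 to 4720 normalised counts, against 38.2 to 225 for the 4 genes.

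**Figure D5:**
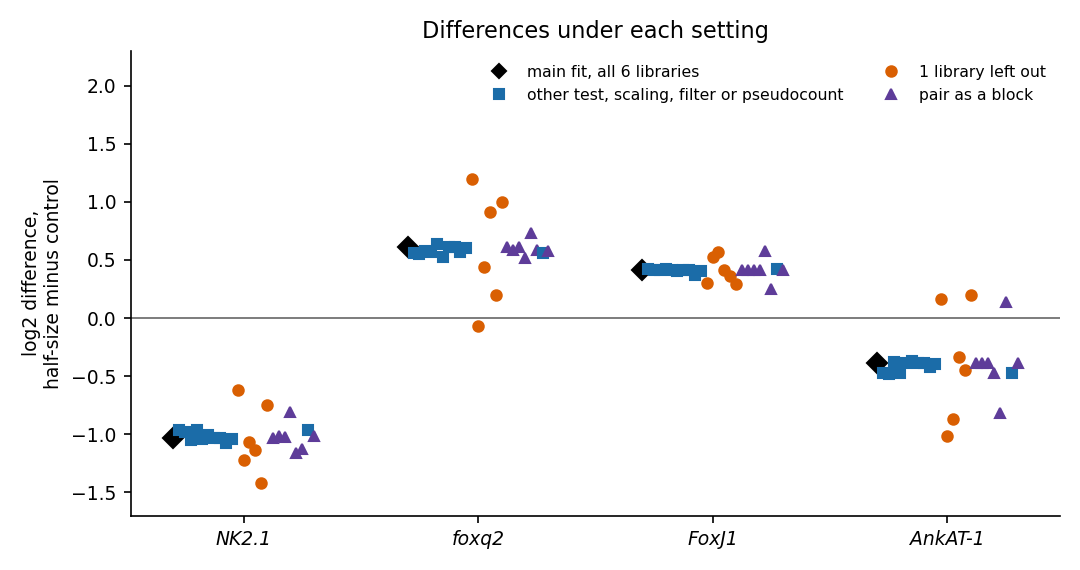
Log2 difference of each gene with all libraries and limma-trend (black diamond) and under 24 other settings. NK2.1 stays below 0 and FoxJ1 above 0 in every setting shown, foxq2 crosses 0 in 1 setting and AnkAT-1 in 3.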

How the data were processed

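The deposited table holds 31261 rows, with gene identifiers of the NCBI annotation of Spur_4.2 per the file headers, an assembly of the related species Strongylocentrotus purpuratus. Bowtie2 2.2.2, DESeq and edgeR are listed without a role in the submitters' processing notes. Poly(A) libraries were stranded per the labels' protocols, but the sources used here do not name the counting tool or strand setting, so overlapping and antisense genes cannot be separated. The 6 value columns are a signal the authors made by dividing read counts by 1 size factor per library. In each column 100% of the deposited values were whole multiples of the smallest one (tolerance 1e-06), which gave back the counts. The authors' deposited mean signal was not used further. The authors' deposited log2 fold changes, standard errors, test score (the fold change over its error) and p-values come from a model the headers do not name. For NK2.1 the fold change was -0.965 there and in the DESeq2 fit without the block. Both had 4 rows at adjusted p under 0.05, so the authors' values are not a separate estimate.

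Groups were compared mainly by limma-trend (limma 3.58.1 in R 4.3.3), fitted to log2(value + 1) of the 18016 rows whose mean reached 1, which understates changes of weak genes. Scaled values led to this choice in place of a count test. edgeR 4.0.16, limma-voom and DESeq2 1.42.0 on recovered counts, blocks on the pairs and leave-outs were alternatives. Columns show a group and no replicate number, so they cannot be matched to the labels' replicates. The pairs found from the values follow the column order. Samples are biological replicates per the labels, and p-values measure the spread between these libraries.

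Named genes were the 4 genes, the 3 with the smallest p in each list, the 3 rows most like each gene, and the kinesin-II genes; 1 row most like foxq2 is not reported here. Of 10 lists 9 had a matched symbol (43 genes), and some genes stood in several lists. Members and lists were chosen with earlier results of these data known.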

Additional observations from a re-analysis of the deposited data

How the results depend on the processing

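No paired analysis was possible because of missing replicate numbers in the columns, if the labels' numbers are to be used; the replicate block here takes its pairs from the values. Of 96 member values over 24 alternatives for each of the 4 genes, 89 kept their direction and their side of the threshold, and the adjusted p of NK2.1 ran from 0.00600 to 1.00. With the replicate block NK2.1 passed in edgeR (-1.02), in DESeq2 (-1.02) and in limma-trend without pair C (-1.13). Signs turned for foxq2 without control library A (-0.0719) and for AnkAT-1 with the replicate block without pair C (0.14). Leaving out 1 library, without the block, gave -1.41 to -0.62 for NK2.1, -0.07 to 1.20 for foxq2, 0.30 to 0.57 for FoxJ1 and -1.02 to 0.20 for AnkAT-1. Such fits leave the pairs unbalanced, so differences between pairs enter them. foxq2 had no adjusted p in blocked DESeq2. The count of 0 called rows became 4 in DESeq2 and, with the block, 3 in limma-trend, 57 in edgeR, 11 in edgeR with filterByExpr and 26 in DESeq2; blocked limma-trend gave 80, 0 and 31 without pairs A, B and C. edgeR and limma-voom without the block called 0, with 213 and 216 rows at unadjusted p under 0.05. List genes called went from 0 to 1 for the ciliary band and oral ectoderm list in each blocked fit except without pair B, to 1 for the aboral ectoderm and forkhead lists in blocked edgeR, and to 2 and 1 for these lists without pair A; the cause was not tested. The ratio difference of NK2.1 to foxq2 was -1.15 without control library A, that of NK2.1 to FoxJ1 -0.92 without half-size library A, that of AnkAT-1 to foxq2 -0.45 without pair C and -1.55 without pair B, and that of AnkAT-1 to FoxJ1 -0.10 without control library C, -0.14 without half-size library A, -0.11 without pair C and -1.54 without control library A.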
